A study of Mus musculus with 8 samples.

Results

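Macrophages exposed to culture supernatant of omentum were compared directly with macrophages exposed to retinoic acid. The comparison took in 4 of the 8 arrays of the series: 2 titled OMsup and 2 titled ATRA. A probe entered when its signal was detected (p under 0.05) on 2 or more of the 8 arrays, which kept 18503 of 45281 probes and 10068 named genes. All cells were bone marrow derived macrophages of C57BL/6 mice, grown for 7 days with the growth factor M-CSF. OMsup cells then received the supernatant and no added retinoic acid for 24 h. ATRA cells received 1 µM all-trans retinoic acid (ATRA) and no supernatant for 24 h. Both treatments were given in macrophage medium without serum. The 2 ATRA+OMsup arrays (both agents together) and the 2 untreated arrays entered the fit for the estimate of spread and are given as values beside the comparison. The labels name no vehicle, no dilution of the supernatant and no age or sex of the mice. They do not say whether the replicates came from separate cultures, so the p-values reflect the spread among these arrays alone, and that spread may be technical.

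Retinoic acid is a metabolite of vitamin A that enters the nucleus and binds retinoic acid receptors, which sit on DNA as partners of retinoid X receptors and switch genes on when the ligand is bound. The omentum is a fatty, leukocyte-rich fold of the peritoneum whose cells secrete cytokines, growth factors and lipids, and its culture supernatant is a mixture of these. Macrophages read cytokines of the interleukin 6 family through JAK kinases and the transcription factor STAT3, oxygen shortage through HIF factors, and viral nucleic acids through type I interferons. The comparison asks how far the response to the mixture differs from the response to the single nuclear receptor ligand.

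Between 16116 and 16784 probes were detected per array, and replicate arrays correlated at 0.991 in OMsup and 0.992 in ATRA, against 0.968 to 0.972 between an OMsup and an ATRA array. Values are log2 normalized intensities, and a difference is OMsup minus ATRA on the log2 scale with the limma standard error (SE). Each group has n = 2. A gene was called higher or lower when its p-value, adjusted by Benjamini and Hochberg's method over all 18503 probes, was under 0.05. Of 7 listed macrophage markers 6 were tested, and their level was high in both groups. Their summed linear intensity was 30134.8 and 27578.3 in OMsup cells and 30391.2 and 29600.2 in ATRA cells. Adgre1, the F4/80 antigen, stood at 11.80 and 11.78 in OMsup cells and 12.08 and 11.91 in ATRA cells.

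OMsup cells were higher in many genes listed for the acute phase and the STAT3 response. They were also higher in glycolysis genes, in cholesterol synthesis genes and in a set of C-type lectin receptors. They were lower in genes of DNA replication and mitosis, in part of the interferon-induced genes, in the chemokine genes Ccl3, Ccl4 and Ccl5, and in a few genes known to answer to retinoic acid or to the sterol receptor LXR. In all, 1394 of 10068 genes were called (13.8%), 644 higher in OMsup cells (6.4%) and 750 lower (7.45%). By probe, 2196 were called (11.9%), 1066 higher (5.76%) and 1130 lower (6.11%). Called genes differed by a median of 0.94 in absolute size. The difference was at least 2 on the log2 scale, or 4-fold, for 59 higher and 65 lower genes. The OMsup and ATRA arrays did not overlap in any called gene, and they did not overlap in 53.3% of all genes either. The balance of directions depended on the scaling. With arrays scaled to a common median in place of quantiles, all probes shifted by a median of -0.17 and the split was 400 higher and 1195 lower genes. With arrays scaled to the median of the tested probes alone, an alternative chosen after seeing the data, the shift was 0.09 and the split 776 and 628. Without ATRA replicate 1 the count was 869 genes and without ATRA replicate 2 it was 845.

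**Figure D1:**
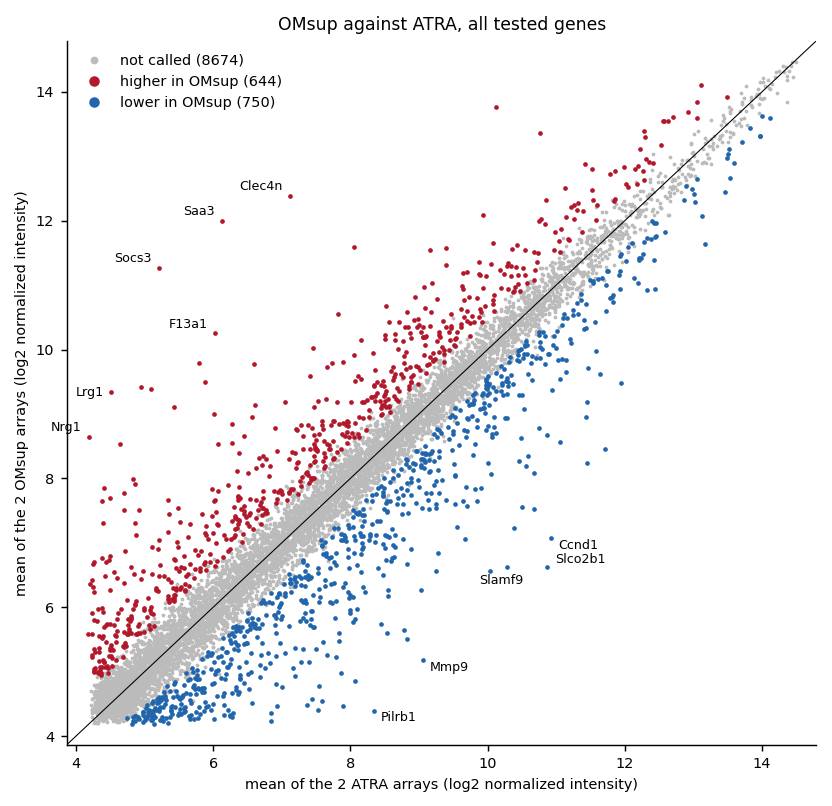
Mean log2 normalized intensity of each tested gene over the 2 OMsup arrays (vertical axis) against the mean over the 2 ATRA arrays (horizontal axis), with the diagonal marking equal levels. The 644 genes called higher in OMsup cells lie above it and the 750 called lower lie below it, with Socs3, Saa3 and Clec4n farthest above and Slco2b1, Pilrb1, Mmp9 and Ccnd1 farthest below.

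The largest difference was in Socs3, the feedback inhibitor of JAK and STAT3 signalling that STAT3 itself induces. Socs3 stood at 11.19 and 11.35 in OMsup cells, against 5.16 and 5.26 in ATRA cells. That is a difference of 6.07 (SE 0.171, adjusted p = 1.65e-08), and the ATRA arrays were lower than the untreated ones, which stood at 6.14 and 5.71. Saa3, a serum amyloid A acute phase protein made by macrophages, was almost as far apart. It stood at 11.96 and 12.04 in OMsup cells, against 6.03 and 6.24 in ATRA cells (difference 5.87, SE 0.396, adjusted p = 5.11e-06). Hp, which encodes haptoglobin, the scavenger of free haemoglobin, stood at 9.32 and 9.53 in OMsup cells, against 4.86 and 5.03 in ATRA cells (difference 4.48, adjusted p = 1.31e-07). Lrg1, a secreted leucine-rich glycoprotein of the acute phase, was not detected on either ATRA array and was at least 26.3-fold higher in OMsup cells (adjusted p = 1.1e-06). In each of these 4 genes the OMsup arrays lay far above the ATRA arrays, and the ATRA+OMsup arrays lay near the OMsup ones. For Socs3 they were at 10.78 and 10.94.

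These 4 belong to a list of 19 genes of the interleukin 6 and STAT3 response, of which 17 were tested. Of the 17, 11 were higher in OMsup cells, 0 were lower in limma (0 also at an unadjusted p under 0.05) and 6 were not called, with a median difference of 1.06, against 6.4% higher and a median of -0.00401 over all genes. At an unadjusted p under 0.05, 2511 of all genes differed. This list and the others were chosen with earlier results of these data known. Their counts and medians therefore describe the members and are no test. Stat3 itself was higher by 1.53 and Bcl3, an IkB-like cofactor induced by STAT3, by 1.73. The kinase gene Pim1 was higher by 1.06, and the factors Cebpb and Cebpd by 0.92 and 0.80. Il4ra, the interleukin 4 receptor alpha chain, was not detected with ATRA and was at least 2.55-fold higher in OMsup cells. The receptor genes were not called: Il6ra differed by 0.09, Il6st by 0.08 and Osmr by 0.10. Lcn2, an iron-sequestering acute phase protein, differed by 0.22 and was not called. Without background correction the median of the list was 0.60 with the same number of calls. Without that step the median size of the difference over the 1394 called genes was 0.61.

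The promoter of Socs3 carries a STAT site, shown here because Socs3 was the gene farthest apart. The letters searched were TTCNNNGAA, where N is any base, which reads the same on both strands. They were searched in the 250 bases before the annotated start in RefSeq promoters of build GRCm38.p6, which were matched to 8212 of the 10068 tested genes. The stretch from 200 to 100 bases before the start (chr11:117969467-117969566, minus strand) holds it once, in capitals.
Socs3: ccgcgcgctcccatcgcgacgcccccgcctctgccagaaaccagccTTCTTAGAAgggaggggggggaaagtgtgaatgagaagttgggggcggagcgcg
The site was in 1 of 15 promoters of the list (6.67%), in 6.92% of promoters of genes called higher, in 4.62% of those called lower and in 6.02% of all tested genes. The share in the list was near that of all genes, and a match is a description of these letters only.

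Other genes at the top of the OMsup side encode receptors, secreted factors and enzymes. Clec4n, the C-type lectin receptor dectin-2 for fungal mannans, stood at 12.44 and 12.34 in OMsup cells, against 7.07 and 7.18 in ATRA cells (difference 5.27, SE 0.139, adjusted p = 1.65e-08). Both groups bracketed the untreated arrays, at 9.31 and 9.0. Nrg1, which encodes the ErbB ligand neuregulin 1, was not detected on either ATRA array or on either untreated array. It stood at 8.29 and 9.01 in OMsup cells and was at least 16.3-fold higher there than in ATRA cells. Tnfsf14, which encodes the TNF family ligand LIGHT, was higher by 4.00, and its 2 further probes by 3.31 and 3.83. Spint1, an inhibitor of serine proteases, was higher by 4.29 and F13a1, the coagulation factor XIII A chain, by 4.23. Gcnt2, a glycosyltransferase of the I blood group antigen, was higher by 3.89. The leukotriene B4 receptor gene Ltb4r1 was higher by 3.69 and Slpi, a secreted inhibitor of neutrophil proteases, by 3.61. Ms4a6d, a membrane-spanning protein of the CD20 family, was higher by 3.64, standing at 13.81 and 13.71 in OMsup cells, against 10.19 and 10.06 in ATRA cells. Sirpb1a was higher by 3.53. Sphk1, which makes sphingosine 1-phosphate, was not detected with ATRA and was at least 9.42-fold higher in OMsup cells. Probes of the Clec, Ms4a, Sirp, Pilr, Ifit and H2 families may also bind transcripts of close relatives.

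The genes lowest in OMsup relative to ATRA cells were led by Slco2b1, an organic anion transporter. Slco2b1 stood at 6.16 and 7.09 in OMsup cells, against 10.78 and 10.96 in ATRA cells (difference -4.24, SE 0.288, adjusted p = 5.22e-06). The OMsup arrays were also below the untreated ones, at 7.82 and 7.58. Pilrb1, an activating paired immunoglobulin-like receptor, was not detected on either OMsup array and was at least 13.2-fold lower in OMsup than in ATRA cells. Mmp9, the gelatinase B gene, stood at 4.88 and 5.48 in OMsup cells, against 8.96 and 9.15 in ATRA cells (difference -3.87, adjusted p = 1.83e-06). Its untreated arrays, at 5.47 and 5.60, were on the OMsup side. Slamf9, a receptor of the SLAM family, showed the other arrangement. It stood at 6.73 and 6.51 in OMsup cells and 10.22 and 10.34 in ATRA cells, with the untreated arrays at 10.61 and 10.56 on the ATRA side and the ATRA+OMsup arrays at 6.49 and 6.34. Cxcl14, a chemokine gene, was detected on 1 of 2 OMsup arrays and stood at 4.61 and 4.33 there, against 8.19 and 7.61 with ATRA (difference -3.43). St3gal5, which makes the ganglioside GM3, was lower by a log2 difference of -3.48, and Tpbgl by -3.32. Clec7a, the beta-glucan receptor dectin-1, differed by -3.25, the direction opposite to its relative Clec4n. Axl, a kinase receptor for the bridging protein Gas6, by which macrophages bind dying cells, differed by -3.20, and Plk2 by -3.15. Fam102a differed by -3.15 and Rasgrp3, an activator of Ras family proteins, by -3.12. Sox4, a transcription factor gene, was not detected with OMsup and was at least 7.51-fold lower by its brightest probe, while its second probe differed by 0.26 and was not called.

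**Figure D2:**
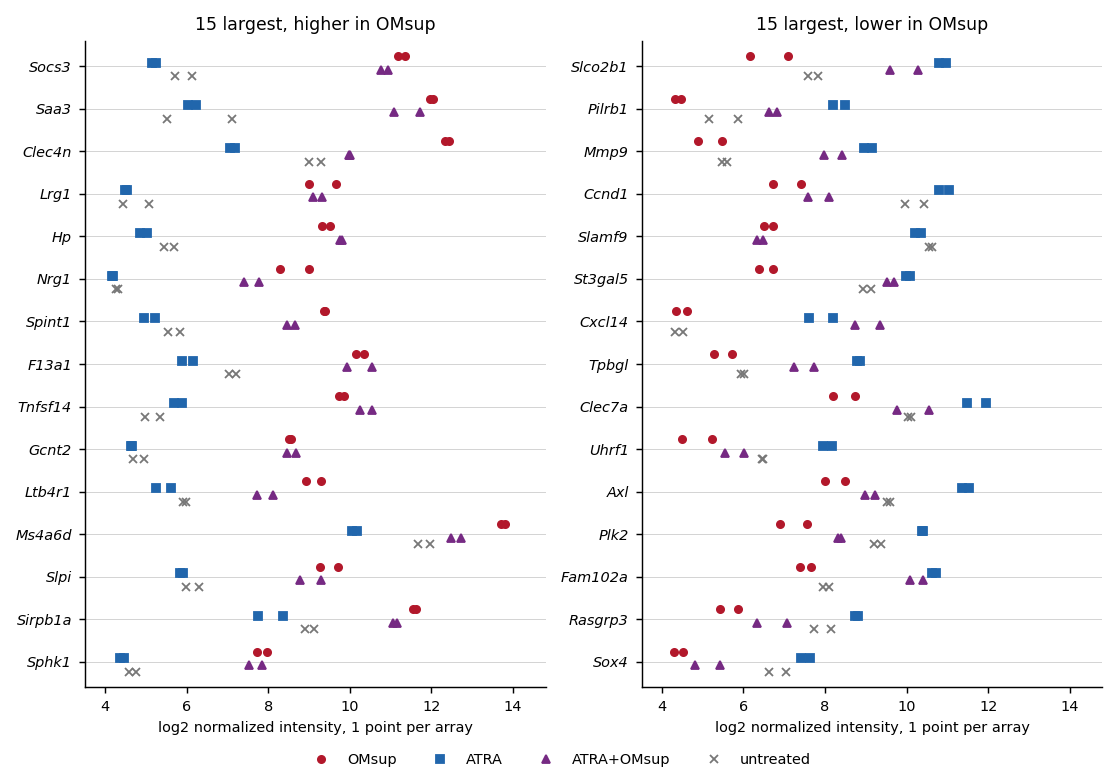
Log2 normalized intensity (horizontal axis) of the 15 genes farthest above and the 15 farthest below, 1 point per array, for OMsup, ATRA, ATRA+OMsup and untreated cells. In each of the 30 genes the 2 OMsup arrays lie apart from the 2 ATRA arrays, and the untreated arrays lie on the ATRA side for Slamf9 and on the OMsup side for Mmp9.

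Genes of the cell cycle formed the clearest block on the ATRA side. Ccnd1, which encodes cyclin D1 and drives entry into the cycle, stood at 6.72 and 7.42 in OMsup cells, against 10.79 and 11.05 in ATRA cells (difference -3.85, SE 0.252, adjusted p = 4.27e-06). Its 2 further probes differed by -3.77 and -2.74. Of 21 listed genes of DNA replication 19 were tested; 14 were lower in OMsup cells, 0 higher in limma (0 also at an unadjusted p under 0.05) and 5 not called, with a median difference of -1.02, against 7.45% lower over all genes. Uhrf1, which keeps DNA methylation through replication, stood at 4.49 and 5.23 in OMsup cells, where 1 of 2 arrays detected it, and 8.18 and 7.94 in ATRA cells (difference -3.20). Tk1, thymidine kinase 1, differed by -2.89. Mcm5, a subunit of the replicative helicase, differed by -2.43, and the other helicase genes Mcm2, Mcm6, Mcm7, Mcm3 and Mcm4 by -1.67, -1.40, -1.12, -1.02 and -0.62. Lig1, DNA ligase 1, differed by -1.87, although 1 of its 3 further probes differed by 0.06 and was not called. Rrm2, a subunit of the enzyme that makes deoxynucleotides, was not detected with OMsup and was at least 3.03-fold lower there, while 1 of its further probes differed by 0.36 and was not called. The licensing and G1 genes Cdt1, Ccne1 and E2f1 were not called, at -0.46, -0.25 and -0.25.

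Of 25 listed genes of mitosis 23 had a probe and 15 were tested. These 15 were all lower in OMsup cells, against 7.45% of all genes, with a median of -2.15. The 8 not tested, among them Ccnb2, Bub1 and Tpx2, were detected on fewer than 2 of the 8 arrays, so the count describes the members that passed and not the list. Kif23, a kinesin of cytokinesis, stood at 5.60 on both OMsup arrays, against 8.41 and 8.64 in ATRA cells (difference -2.93, SE 0.166, adjusted p = 1.56e-06). Of its 2 further probes, 1 differed by -2.45 and 1 by 0.10, which was not called. Prc1, which bundles the microtubules of the central spindle, differed by -2.76 and Anln, anillin, by -2.56. Top2a, the DNA topoisomerase of dividing cells, stood at 5.17 and 5.36 in OMsup cells, against 7.56 and 7.75 in ATRA cells (difference -2.39). The kinase genes Plk1, Cdk1, Aurkb and Aurka differed by -2.15, -1.46, -1.13 and -0.96. Untreated arrays lay between for Top2a, at 6.30 and 6.4, and near the ATRA arrays for Kif23, at 8.38 and 8.24. The ATRA+OMsup arrays were near the OMsup ones in both, at 5.91 and 5.64 for Top2a and 5.55 and 5.40 for Kif23. In RNA from whole cultures, fewer dividing cells and less message per cell cannot be told apart. Without background correction the medians of the replication and mitosis genes were -0.56 and -1.06, with 13 and 15 calls.

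The Top2a promoter is shown because it is rich in CCAAT boxes, an element common in mitotic genes. The 250 bases before its start (chr11:99024190-99024439, minus strand) hold 6 of them, in capitals, with ATTGG being the box on the other strand.
Top2a: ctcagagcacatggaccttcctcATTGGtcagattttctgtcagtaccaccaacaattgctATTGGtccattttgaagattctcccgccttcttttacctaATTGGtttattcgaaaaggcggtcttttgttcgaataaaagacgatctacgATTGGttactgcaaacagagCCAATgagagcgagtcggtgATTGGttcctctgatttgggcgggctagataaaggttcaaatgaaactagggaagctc
The box was in 10 of 14 promoters of the mitosis genes (71.4%) and 9 of 17 of the replication genes (52.9%). Other lists held it as often, with 12 of 13 promoters of cholesterol synthesis genes (92.3%), which were higher in OMsup cells, 5 of 7 of MHC class II genes (71.4%) and 16 of 23 of stress genes (69.6%). It was in 34.6% of promoters of genes called higher, 41.8% of those called lower and 36.3% of all tested genes. TTTGAA, known as the cell cycle homology element and searched on either strand, was in 5 of the 14 mitosis promoters (35.7%) and 1 of the 17 replication promoters (5.88%), against 10.8% of all tested genes. It was also in 6 of 11 promoters of the C-type lectin receptors (54.5%) and 3 of 8 of the growth factors (37.5%).

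Genes of glycolysis and of the hypoxia response stood higher in OMsup cells. Of 27 listed genes 24 were tested, with a median of 0.68. Of the 24, 16 were higher, 1 lower and 7 not called, against 6.4% higher and 7.45% lower over all genes. Egln3, the oxygen-sensing prolyl hydroxylase that HIF induces, stood at 7.83 and 8.15 in OMsup cells, against 4.81 and 4.87 in ATRA cells (difference 3.15, SE 0.177, adjusted p = 1.5e-06), and was not detected in untreated cells. Its second probe differed by 0.22 and was not called. Aldoc, an aldolase, was higher by 2.06 and Ndrg1, a stress-induced gene, by 1.52. Slc2a1, the glucose transporter GLUT1, stood at 10.90 and 11.04 in OMsup cells, against 9.02 and 9.12 in ATRA cells (difference 1.90, adjusted p = 2.11e-05). Smaller differences ran along the pathway, with Pfkl at 1.30, Pgk1 at 1.47, Pgam1 at 0.83, Pkm at 0.99, Ldha at 0.48 and the lactate exporter Slc16a3 at 1.38. Further probes of Pfkl, Pgk1 and Slc16a3 differed by 0.59, 0.15 and 0.24 and were not called. Vegfa, the vascular growth factor gene that HIF also induces, was the exception. It stood at 7.94 and 8.00 in OMsup cells, against 9.26 and 9.40 in ATRA cells (difference -1.36, SE 0.158, adjusted p = 0.000196), and at 10.03 and 10.21 with both agents. The number of members called higher was 10 without OMsup replicate 1 and 10 without ATRA replicate 2, with medians of 0.63 and 0.68.

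The hypoxia response core ACGTG was in 11 of 23 promoters of this list (47.8%), against 22% of all tested genes, 21.9% of genes called higher and 18.7% of genes called lower. Shares in lists of other kinds were as high, with 4 of 8 promoters of glucocorticoid-responsive genes (50%), 6 of 13 of immediate early genes (46.2%) and 9 of 23 of stress genes (39.1%). The Slc2a1 promoter is shown as an example of a core close to the start, in the last 100 bases before it (chr4:119108645-119108744, plus strand).
Slc2a1: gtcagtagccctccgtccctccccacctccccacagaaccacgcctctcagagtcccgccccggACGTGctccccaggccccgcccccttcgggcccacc

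Cholesterol synthesis genes were higher with OMsup too, and 5 of 14 tested targets of LXR, the receptor that senses oxidised sterols, were lower. Of 23 listed genes of cholesterol synthesis and uptake 16 had a probe and were tested, with a median of 1.04. Of the 16, 11 were higher in OMsup cells, against 6.4% over all genes. In limma 0 were lower (0 also at an unadjusted p under 0.05) and 5 were not called. Mvd, the mevalonate diphosphate decarboxylase, stood at 8.80 and 8.50 in OMsup cells, against 6.44 and 6.46 in ATRA cells (difference 2.2, SE 0.176, adjusted p = 1.53e-05). Fdps, which makes farnesyl diphosphate, was higher by 1.54, Sqle, squalene epoxidase, by 1.51 and Stard4, a carrier of sterols, by 1.52. Insig1, the sterol-regulated brake on the pathway, was not called at -0.52, nor was the pathway's transcription factor Srebf2 at 0.45. Of 16 listed LXR targets and lipoprotein genes 14 were tested. Of the 14, 5 were lower in OMsup cells, against 7.45% over all genes, and 9 were not called. The median of the 14 was -0.31. It became -0.20 with undetected members at their bound, -0.19 without background correction and -0.13 with scaling to the tested probes. Apoc1, an apolipoprotein gene, stood at 5.43 and 5.97 in OMsup cells, against 7.57 and 7.34 in ATRA cells (difference -1.75). Abcg1, an exporter of cholesterol, differed by -1.51, Scd1, a fatty acid desaturase, by -1.50 and Pltp, a phospholipid transfer protein, by -1.14. Nr1h3, which encodes LXR alpha, differed by -1.50. Apoe, at -0.23, and Srebf1, at -0.05, were not called. Lpl was not among the 5 by its brightest probe, while a further probe was lower, at -2.23 (adjusted p = 1.42e-05 in limma).

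Some interferon-induced genes were lower in OMsup cells. Of 27 listed genes 22 were tested, with a median of -0.73. Of the 22, 10 were lower, against 7.45% over all genes. In limma 0 were higher (0 also at an unadjusted p under 0.05) and 12 were not called. Ifit3, an antiviral protein that binds foreign RNA, stood at 6.07 and 7.05 in OMsup cells, against 9.10 and 9.41 in ATRA cells (difference -2.70, SE 0.288, adjusted p = 0.000112). Rsad2, the antiviral enzyme viperin, stood at 6.66 and 7.47 in OMsup cells, against 9.58 and 9.75 in ATRA cells (difference -2.60, adjusted p = 3.49e-05). In both genes the untreated arrays were at the level of the ATRA arrays, with 9.87 and 9.36 for Ifit3 and 9.43 and 9.12 for Rsad2. Ifit2 differed by -2.29, Cmpk2 by -1.95, Usp18, which removes ISG15 from proteins, by -1.80, and Irf7 by -1.06. The members not called included Isg15, at -0.51, Stat2, at 0.12, and Oas2, at 0.09, so the list did not move as a whole. A further probe of Zbp1, a sensor of viral nucleic acid, was higher by 0.79 (adjusted p = 0.0292), while its brightest differed by 0.06 and was not called. The median was -0.44 without OMsup replicate 1, with 9 calls, and -0.28 without background correction, with 10.

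The interferon response core GAAANNGAA, searched on either strand, was in 10 of 16 promoters of this list (62.5%), against 6.32% of all tested genes and 8.22% of both the genes called higher and those called lower. Ifit3 and Rsad2 are shown as the members farthest apart, each from the part of the promoter that holds the core (chr19:34583349-34583448, plus strand and chr12:26456513-26456612, minus strand). The capitals mark the core, on either strand.
Ifit3: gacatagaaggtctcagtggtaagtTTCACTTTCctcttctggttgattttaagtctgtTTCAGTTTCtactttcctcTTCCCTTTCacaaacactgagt
Rsad2: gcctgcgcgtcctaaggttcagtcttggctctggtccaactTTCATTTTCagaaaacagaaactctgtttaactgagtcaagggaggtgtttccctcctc
The Ifit3 stretch holds it 3 times and the Rsad2 stretch once.

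**Figure D3:**
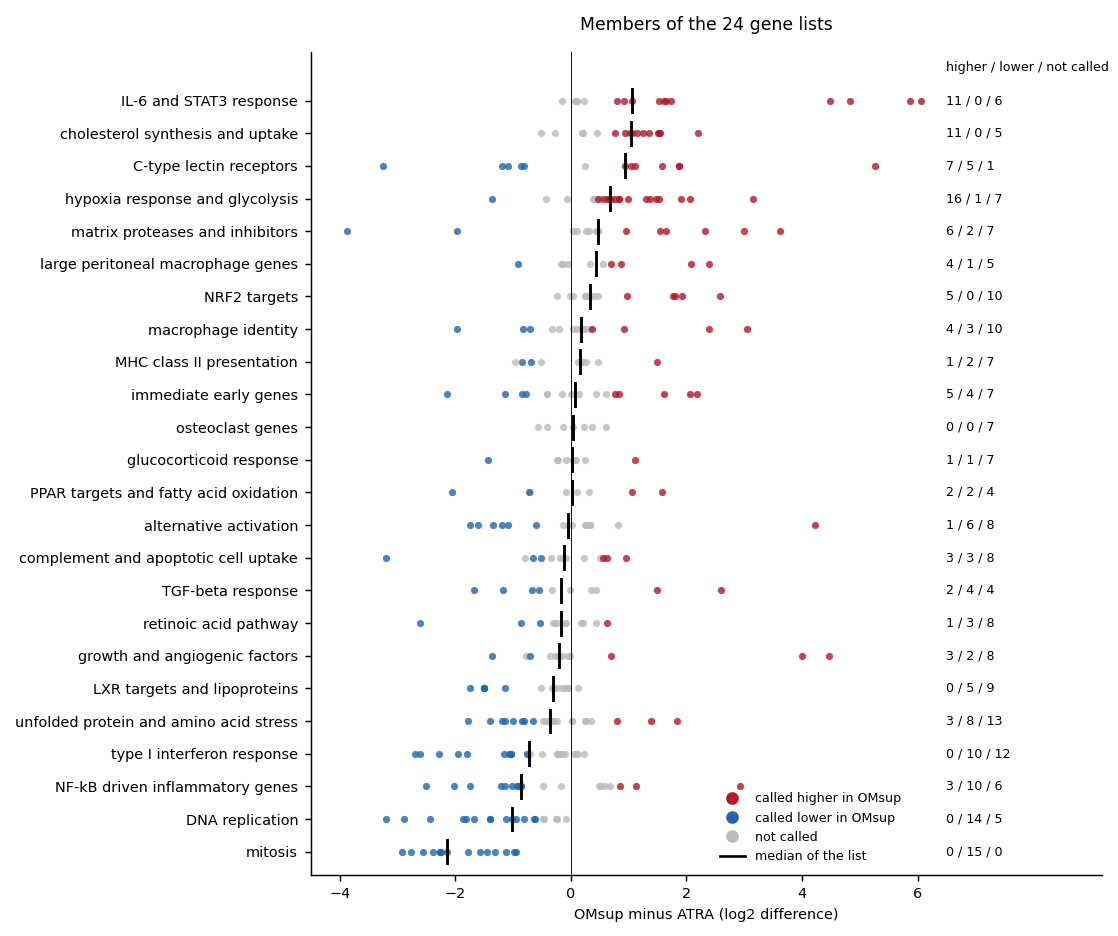
Difference OMsup minus ATRA on the log2 scale (horizontal axis) of each tested member of the 24 gene lists, 1 point per gene, with the median of each list as a black bar and the number of members higher, lower and not called at the right. The IL-6 and STAT3 list has a median of 1.06 at the top and the mitosis list one of -2.15 at the bottom.

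Inflammatory genes listed as targets of NF-kB were divided. Of 25 listed 19 were tested. Of the 19, 3 were higher in OMsup cells, 10 lower and 6 not called, against 6.4% higher and 7.45% lower over all genes. The median of the 19 was -0.86. It became -0.50 with undetected members at their bound and -0.28 without background correction. Il1b, the interleukin 1 beta gene, was not detected with ATRA. It stood at 7.24 and 7.39 in OMsup cells and was at least 6.47-fold higher there (adjusted p = 5.89e-06). Icam1, an adhesion molecule, was higher by 1.13. The chemokine genes Ccl3, Ccl4 and Ccl5, which draw in leukocytes, differed by -2.50, -2.02 and -1.75. Ccl3 averaged 8.56 over the OMsup arrays, against 11.06 over the ATRA arrays (SE 0.129, adjusted p = 1.03e-06), with untreated arrays at 10.68 and 10.46. The cytokine gene Tnf differed by -0.86 and its feedback inhibitor Tnfaip3 by -1.01. Of the IkB and NF-kB subunit genes, Nfkbia, Nfkb2 and Relb were not called, at 0.48, 0.58 and 0.52.

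Immediate early genes, which answer within minutes to growth factors and many of which encode transcription factors, went both ways. Of 21 listed 16 were tested, with 5 higher, 4 lower and 7 not called, against 6.4% higher and 7.45% lower over all genes. Ier3 stood at 11.40 and 11.76 in OMsup cells, against 9.34 and 9.46 in ATRA cells (difference 2.18). Fosl2 was higher by 2.06 by its brightest probe, its second probe differing by 0.02, and Junb by 1.61. Egr1 was lower with a difference of -2.14, Egr2 with -1.13 and Egr3 with -0.84, while a further probe of Egr3 differed by 0.05 and was not called. Fos, at 0.61, and Jun, at 0.00, were not called.

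Among C-type lectin receptors, which bind microbial sugars, 13 of 16 listed genes were tested. Of the 13, 7 were higher in OMsup cells, 5 lower and 1 not called, against 6.4% higher and 7.45% lower over all genes. All 6 tested genes of the Clec4 cluster were on the OMsup side. After Clec4n these were Clec4e (mincle, 1.88), Clec4a1 (1.87), Clec4a3 (1.58), Clec4d (1.11) and Clec4b1 (0.94), while the 2 further probes of Clec4b1 differed by -0.38 and 0.15 and were not called. Clec5a was higher by 1.05. Clec7a, Mgl2, Clec10a, Clec9a and Clec12a were lower. Mgl2 and Clec10a, the galactose-binding lectins of alternatively activated macrophages, differed by -1.19 and -1.08.

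Of matrix proteases and their inhibitors 15 of 19 listed genes were tested. Of the 15, 6 were higher, 2 lower and 7 not called, against 6.4% higher and 7.45% lower over all genes. The proteases went both ways. Mmp14, a membrane-bound collagenase, stood at 8.99 and 9.01 in OMsup cells, against 6.03 and 5.99 in ATRA cells (difference 2.99, SE 0.152, adjusted p = 9.1e-07). With both agents it stood at 6.90 and 6.97, nearer the ATRA cells. Timp1, an inhibitor of these enzymes, was higher by 2.33, and the cathepsin genes Ctsk and Ctsl by 1.65 and 1.54. Plau, the urokinase gene, differed by -1.97 in the direction of Mmp9. Of 21 listed growth and angiogenic factors 13 were tested, with 3 higher, 2 lower and 8 not called. Besides Nrg1, Tnfsf14 and Vegfa these were Osm, oncostatin M, higher by 0.70 and Hbegf, another ErbB ligand, at -0.70. The number called was 3 without ATRA replicate 1 and 3 without ATRA replicate 2.

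NRF2 targets, which defend against oxidants, had 5 of 15 tested members higher in OMsup cells, against 6.4% over all genes. In limma 0 were lower (0 also at an unadjusted p under 0.05) and 10 were not called. Gsta3, a glutathione transferase, stood at 10.03 and 10.01 in OMsup cells, against 7.66 and 7.24 in ATRA cells (difference 2.57, adjusted p = 2.57e-06), while its second probe differed by 0.44 and was not called. Gclm, a subunit of the enzyme that starts glutathione synthesis, was higher by 1.92 and Nqo1 by 1.80. Slc7a11, the cystine importer, was not detected with ATRA and was at least 3.13-fold higher. Hmox1, at 0.31, and Txnrd1, at -0.24, were not called. TGACNNNGC, the antioxidant response core, was in 3 of 14 promoters of this list (21.4%), against 11.7% of all tested genes.

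Of 22 listed genes of retinoic acid handling and response 12 were tested. Of the 12, 3 were lower in OMsup cells, 1 higher and 8 not called, against 7.45% lower and 6.4% higher over all genes. On at least 1 array of the group, 7 of the 12 were detected with OMsup and 11 with ATRA. Among the 5 members detected on all 4 arrays, 1 was lower, 1 higher and 3 not called. Their median was 0.18, against -0.17 for the 12, so the counts describe the members that passed the filter. Asb2, which retinoic acid induces in myeloid cells and which directs proteins to degradation, was not detected on either OMsup array. It stood at 6.69 and 7.00 in ATRA cells and was at least 4.7-fold lower with OMsup (adjusted p = 1.53e-05). Dhrs3, which returns retinaldehyde to retinol, stood at 6.07 and 6.29 in OMsup cells, against 6.96 and 7.13 in ATRA cells (difference -0.87). Hic1 differed by -0.53, or at least 1.16-fold, and Rxra, a retinoid X receptor gene, by 0.63. Rarb, the receptor gene that retinoic acid induces in many cells, and Aldh1a2, the enzyme of its synthesis, were below detection with OMsup and were detected on 1 of 2 ATRA arrays. Their differences of -0.25 and -0.31 were not called. Cyp26b1, which degrades retinoic acid, was detected on no array. The number of members called was 1 without ATRA replicate 2 and 1 without OMsup replicate 1, and 2 without either of the other arrays. The direct repeat of GGTCA with 6 bases between is 1 form of the repeats that retinoic acid receptors bind. These exact letters were in 0 of 9 promoters of this list and in 5 of all 8212. Other forms of the repeat were not searched, so the count does not show whether these promoters hold a receptor site.

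Genes that mark resident large peritoneal macrophages, whose identity depends on retinoic acid and the factor GATA6, were mostly dim. Of 19 listed 10 were tested. In OMsup cells 4 were higher, 1 lower and 5 not called, against 6.4% higher and 7.45% lower over all genes. Gata6 and Alox15 were detected on no array and Tgfb2 on 1 array. F10, coagulation factor X, stood at 8.79 and 9.13 in OMsup cells, against 6.52 and 6.62 in ATRA cells (difference 2.38, adjusted p = 4.27e-06). Thbs1, thrombospondin 1, was not detected with ATRA and was at least 3.23-fold higher in OMsup cells. Garnl3 and Selp were also called higher. Icam2 was the 1 called lower, with differences of -1.26 to -0.58 under the alternatives. Garnl3, Selp and Icam2 each lost the call under some alternatives. Among the 6 members detected on all 4 arrays, 2 were higher, 1 lower and 3 not called. Their median was -0.09, against 0.44 for the 10 tested. Ltbp1, a matrix store of latent TGF-beta, differed by -0.13 and was not called. The number called was 2 without OMsup replicate 1, 2 without ATRA replicate 1 and 2 without ATRA replicate 2, and 3 without OMsup replicate 2.

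Genes of alternative activation, the programme of macrophages exposed to interleukin 4, were lower in 6 of 15 tested cases and higher in 1, with 8 not called. Over all genes 7.45% were lower and 6.4% higher. Folr2, a folate receptor, differed by -1.75, Socs2 by -1.60 and Irf4 by -1.36. Arg1, the arginine-degrading enzyme arginase 1, stood at 6.87 and 8.21 in OMsup cells and 6.59 and 6.84 in ATRA cells. The OMsup arrays differed widely from each other, and the difference of 0.82 (SE 0.332, adjusted p = 0.164) was not called. Without OMsup replicate 1 it was 1.49 (adjusted p = 0.00154) and without OMsup replicate 2 it was 0.15 (adjusted p = 0.796). With both agents together Arg1 stood at 13.75 and 13.76, far above either alone.

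Genes that define macrophages and monocytes showed a split between 2 chemokine receptors. Ccr2, the receptor of inflammatory monocytes, stood at 7.93 and 7.89 in OMsup cells, against 4.89 and 4.82 in ATRA cells (difference 3.05, SE 0.196, adjusted p = 3.48e-06). Cx3cr1, the fractalkine receptor of tissue macrophages, stood at 5.40 and 5.29 in OMsup cells, against 7.39 and 7.23 in ATRA cells (difference -1.96). Of 17 tested macrophage identity genes 4 were higher, 3 lower and 10 not called, against 6.4% higher and 7.45% lower over all genes. The number higher was 2 without ATRA replicate 1, without ATRA replicate 2 or without OMsup replicate 2, and 2 under scaling to the common median. Fcgr2b, the inhibitory Fc receptor, was higher by 2.40, and Irf8 and Cd14 were lower, at -0.83 and -0.70. Csf1r, the M-CSF receptor, at 0.11, and Spi1, which encodes PU.1, at 0.22, were not called. Among complement and uptake genes 3 of 14 tested members were higher, 3 lower and 8 not called, against the same shares over all genes. Pros1, protein S, was higher by 0.96, while Axl was lower and its relative Mertk differed by -0.66. The number called in that group was 3 without ATRA replicate 1 and 3 without ATRA replicate 2. MHC class II genes present antigen to CD4 T cells. Of 10 tested members 1 was higher, 2 were lower and 7 were not called, against the same shares over all genes. Cd74 differed by -0.69 and H2-Eb1 by -0.84, and Ctss, the protease that trims the invariant chain, was higher by 1.49. H2-Ab1 was not called by its brightest probe, but its further probes were lower, at -0.65 and -0.56 (adjusted p = 0.00439 and 0.0208 in limma).

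Apart from granule and platelet genes, few markers of other cells were called. Of 8 listed granulocyte markers 7 were tested. Of the 7, 3 were higher in OMsup cells, against 6.4% over all genes: Mpo by 1.54, S100a8 by 1.24 and Elane by 1.11. Their summed linear intensity over the 7 was 2124.71 and 1768.36 in OMsup cells and 984.307 and 881.949 in ATRA cells. Ngp, Ltf and Camp, the secondary granule genes, were not called and differed by -0.51, -0.70 and -0.47. S100a9 was not called either. At an unadjusted p under 0.05 in limma, 4 of the 7 were higher and 3, the secondary granule genes, were lower. By that measure 2511 of all 10068 genes differed. Of 5 megakaryocyte and platelet markers 3 were tested, with Pf4 higher by 2.16, Ppbp by 1.82 and Gp9 at 0.01, and a summed intensity of 1482.57 and 2076.91 in OMsup cells and 454.279 and 386.006 in ATRA cells. None of the 6 mesothelial or 6 T and NK cell markers with a probe was tested, since they were detected on fewer than 2 arrays. Adipocyte, fibroblast, endothelial, B and dendritic cell markers gave 9 tested genes with 0 calls in limma, and 0 at an unadjusted p under 0.05. Most of these were near the detection floor. None of the 3 dendritic cell markers was detected with OMsup, and neither fibroblast marker was detected with ATRA. The lack of calls there does not show that such markers stayed level. Mast cell markers gave 2 tested genes, of which Kit was at least 1.19-fold lower. The part of these cells in the other differences was not tested.

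Many genes showed a small difference between the treatments. For 4792 genes (47.6%) the 95% interval of the difference lay within 1.5-fold either way. A further 3883 genes were neither called nor had an interval that narrow. These counts did not require detection, and 8097 genes had a probe detected on all 4 arrays. Near the detection floor a narrow interval does not show that levels were alike. Among the 4792 genes, those detected on all 4 arrays and farthest from untreated cells are named. Tgm2, transglutaminase 2, a known retinoic acid target, stood at 9.88 and 9.73 in OMsup cells, against 9.99 and 9.82 in ATRA cells, with untreated arrays at 8.72 and 9.27. The difference was -0.10. Apoc2, an activator of lipoprotein lipase, stood at 9.85 and 9.82 in OMsup cells, against 10.05 and 9.84 in ATRA cells, and at 8.04 and 7.75 in untreated cells. Both were higher still with the 2 agents together, at 11.87 and 11.65 for Tgm2 and 11.85 and 11.47 for Apoc2. AB124611, Mt2, a metallothionein, Scd2 and Aqp9 were also above untreated in both groups, with differences between OMsup and ATRA of 0.05 to 0.27. Below untreated in both were Nxpe4, H2-DMa, Klf2, Slc6a12, Pdlim2 and Dok2. H2-DMa, which loads peptides on MHC class II, stood at 10.09 and 10.16 in OMsup cells, against 10.09 and 9.77 in ATRA cells, with untreated arrays at 11.15 and 11.19.

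For the called genes, the arrays with both agents were also set beside the OMsup and the ATRA arrays. These comparisons use the same OMsup and ATRA arrays that made the calls and are given as counts. Of the 644 genes called higher, the ATRA+OMsup mean was nearer the OMsup mean in 434 (67.4%), and of the 750 called lower in 492 (65.6%), against 57.8% of all genes. The untreated mean was nearer the OMsup mean in 29% of genes called higher and 42.3% of those called lower, against 42.7% of all genes. In 118 called genes both ATRA+OMsup arrays lay above all 4 others (8.46%, against 7.64% of all genes) and in 93 below (6.67%, against 9.01%). Above them were Ppbp, Prtn3, Pf4 and Selp. Ppbp, a platelet chemokine gene, stood at 6.27 and 6.97 in OMsup cells, against 4.83 and 4.77 in ATRA cells, and at 10.68 and 11.31 with both. Prtn3, the granule protease proteinase 3, stood at 6.70 and 6.90 in OMsup cells, against 5.76 and 5.39 in ATRA cells, and at 10.27 and 10.17 with both. Below them were Stap1, Clec4b1, Cd74 and Hpgd. Hpgd, which breaks down prostaglandins, stood at 5.54 and 5.92 in OMsup cells, against 6.70 and 7.11 in ATRA cells, and at 4.22 and 4.69 with both, with untreated arrays at 8.52 and 8.38.

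**Figure D4:**
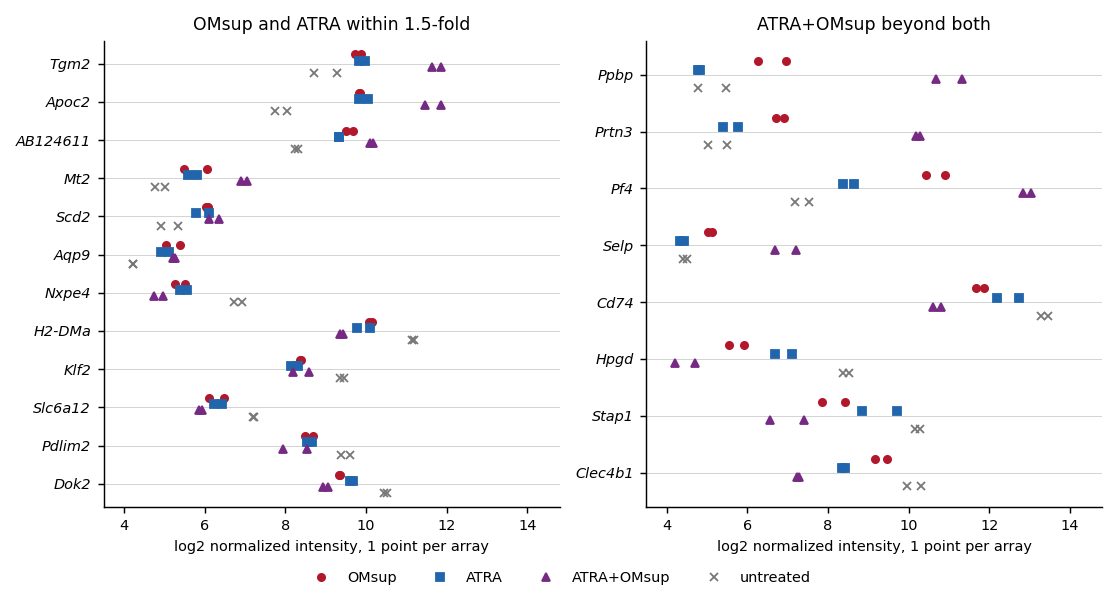
Log2 normalized intensity (horizontal axis), 1 point per array, of 12 genes whose OMsup and ATRA levels lay within 1.5-fold (left) and of 8 called genes whose ATRA+OMsup arrays lay beyond all OMsup and ATRA arrays (right). At the left the OMsup and ATRA points lie together and apart from the untreated ones, and at the right the ATRA+OMsup points of Ppbp, Prtn3, Pf4 and Selp lie above all others and those of Stap1, Clec4b1, Cd74 and Hpgd below.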

How the data were processed

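RNA of 8 macrophage samples was measured on 1-colour Illumina mouse bead arrays, 1 array a sample. Per the labels, RNA was amplified to biotin-labelled cRNA. The authors deposited a non-normalized table with an intensity (linear, without background subtraction, as its values show) and, per the file headers, a detection p-value for each probe and array, and a normalized intensity table, used here only as an alternative. Which software made them is not given in the sources used. The deposited intensity values were background-corrected and quantile-normalized with neqc (limma 3.58.1, R 4.3.3; control levels derived by neqc from the detection p-values; offset 16) and put on the log2 scale. Of 45281 probes (1348 empty lines left out) 34885 had 1 gene symbol, 18 several and 10378 none. lmFit estimated group means over all 8 arrays, and eBayes, with a trend on mean level, gave the tests (4 residual and 6.73 prior degrees of freedom). The SE had a median of 0.176, and the number of arrays limits the precision.

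A gene was represented by its brightest tested probe, and 2725 tested probes without a single symbol are unnamed. A probe undetected on both arrays of a group has only a bound there: "at least N-fold" compares the brighter group's mean with the higher of the probe's own value and the lowest detected value of each array. Named genes are the 15 largest called differences each way, up to 4 called members of each of 24 lists, 10 key genes, the genes most alike and those where both agents together lay beyond either. Further list members are given to complete a group. The members and lists were chosen with earlier results of these data known. Promoter letters came from RefSeq (GRCm38.p6), the first entry of each gene. The fit was tested on simulated data. The alternatives tried were other background corrections, scalings, filters, arrays, trend, thresholds, a replicate block and leaving out each array.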

Additional observations from a re-analysis of the deposited data

How the results depend on the processing

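The number of genes called, 1394, was 1187 to 1595 under other background correction, scaling, filters, arrays in the fit, trend or choice of probe. No gene called in the analysis as reported turned its sign under any alternative in which it was tested. A 2-fold limit left 612 genes (286 higher, 326 lower) and 939 probes (452 and 487). Scaling to a common median gave 400 higher and 1195 lower genes, and 649 and 1897 probes. Leaving out 1 OMsup or ATRA array gave 845 to 980 genes (391 to 465 higher, 454 to 515 lower) and 1327 to 1511 probes (632 to 747 and 695 to 764). The lone array left in a group is then assumed to vary like the others. Same-numbered OMsup and ATRA arrays deviated together from their group means (correlation 0.46), as did those of ATRA+OMsup with OMsup (0.51) and with ATRA (0.44) and of ATRA with untreated (0.27). Untreated arrays did so less with OMsup (0.08) and ATRA+OMsup (0.04), so not every pair deviated together and the numbers were not taken to pair the samples. With the replicate block 1937 genes (910 higher, 1027 lower) and 3170 probes (1543 and 1627) were called, and it ended no call. Of 112 named called genes 97 kept their call under all 15 alternatives for single genes. The other 15 were Cd74, Dhrs3, Garnl3, Hbegf, Hic1, Hpgd, Icam2, Itgam, Itgb5, Mertk, Plin2, Ppard, Rxra, Selp and Stap1. Src (without OMsup replicate 2, or with the median of the tested probes), Dcstamp and Dok2 (common median) and Arg1 (without OMsup replicate 1) were called only under those alternatives. Of 360 list medians recomputed 48 moved by more than the replicate SD, and 10 lists had a median that changed sign under some alternative. With all arrays and the reported settings these 10 medians lay between -0.17 and 0.44. The chip as a block was not run, since no header names it. The cause of these changes was not tested.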

Other observations

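Genes of other groups also differed between OMsup and ATRA cells. Of 24 tested genes of unfolded protein and amino acid stress, 3 were higher in OMsup cells, 8 lower and 13 not called. The shares over all genes, for this and the following groups, were 6.4% higher and 7.45% lower. The enzymes of serine and one-carbon metabolism Psat1 and Mthfd2 differed by -1.77 and -1.39, Asns, asparagine synthetase, by -1.19 and Ddit3, the stress factor CHOP, by -1.0, while Ddit4, an inhibitor of mTORC1, was higher by 1.83. The number called was 7 without ATRA replicate 2. Pparg, which encodes the lipid-sensing receptor PPAR gamma, stood at 7.94 and 7.77 in OMsup cells, against 9.85 and 9.96 in ATRA cells (difference -2.05, adjusted p = 8.54e-06 in limma), and its relative Ppard was higher by 1.06. The fatty acid carrier Fabp5 was higher by 1.58 and the lipid droplet coat Plin2 differed by -0.72. Of 10 tested TGF-beta response genes 2 were higher, 4 lower and 4 not called. Tgfbi, an extracellular matrix protein, stood at 13.34 and 13.37 in OMsup cells, against 10.73 and 10.78 in ATRA cells (difference 2.60, adjusted p = 2.41e-07 in limma), and Ccn2, connective tissue growth factor, was not detected with OMsup and was at least 2.92-fold lower. Of 9 tested glucocorticoid-responsive genes Tsc22d3 was higher by 1.11, and Cd163, the haemoglobin scavenger receptor, was not detected with OMsup and was at least 2.43-fold lower. Of 7 tested osteoclast genes 0 were called in limma and 3 had an unadjusted p under 0.05. The number of PPAR-related genes called was 2 of 8 tested without ATRA replicate 2, against 4 with all arrays, and the number of TGF-beta response genes 3 without OMsup replicate 1, against 6.

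Of 594 called genes with a further tested probe, 341 had another probe called the same way, 252 had none called, and 1, Ifitm1, had probes called in opposite directions. Ifitm1 was chosen after its values were seen. Its brightest probe stood at 13.40 and 13.22 in OMsup cells, against 14.11 and 13.84 in ATRA cells (difference -0.67). Its next probe stood at 10.81 and 10.79 in OMsup cells, against 6.97 and 6.84 in ATRA cells (difference 3.90), and 2 more were higher by 1.03 and 0.90. No direction is given for the gene.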
